A study of Mus musculus with 2 samples.

Results

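Within bone marrow cells sorted as long-term haematopoietic stem cells (LT-HSC), 148 cells carried much Pf4 RNA, little Car1 RNA and little RNA of cell division, and these cells are described here. They were 148 of the 2722 cells kept from the LT-HSC library (5.44%, exact binomial 95% interval 4.62% to 6.36%) and of the 9370 cells kept from both libraries of the series. Each had at least 10 Pf4 UMIs (unique molecular identifiers, 1 per captured RNA molecule) per 10000 UMIs of the cell, under 10 of Car1, and under 5 of Mki67, Top2a, Cenpf, Kif11, Nusap1, Tpx2 and Prc1 together (the mitosis sum). They are called Pf4-high mitosis-low cells and not non-cycling cells, because the rule limits only the sum of those 7 genes. S phase genes, given below, were at a median of 26.0 UMIs per 10000 in these cells, against 34.3 in Pf4-high cells with a higher mitosis sum. Clustered histone genes were at a median of 4.64 against 58.7 in the same order. Because Pf4, Car1 and those 7 genes chose the cells, their values are a description of the choice and not a result.

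Platelets are shed by megakaryocytes, large bone marrow cells that descend from haematopoietic stem cells, in part through stem cells that already express megakaryocyte genes. On that path cells take up the integrin and glycoprotein receptors through which platelets adhere, store granule proteins such as platelet factor 4 (the product of Pf4) and von Willebrand factor, and copy their genome repeatedly without dividing. Gata1, Fli1, Runx1 and Gfi1b encode transcription factors of this lineage, and Gata1 acts with Klf1 on the neighbouring erythroid path, where Car1, a carbonic anhydrase, is made.

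The series holds 1 droplet library of LT-HSC and 1 of short-term HSC (ST-HSC) from wild-type C57Bl6 mice, aged 8 weeks by the series title. Per the labels, both came from the LSK gate (no lineage markers, with Sca-1 and Kit on the surface) without CD34, LT-HSC with CD150 and without CD48 and Flk2, ST-HSC with both CD150 and CD48. The labels do not say how many mice were pooled. With 1 library per sort there was no replicate, so no test was made, genes are called by the size of a ratio of counts, and all intervals cover counting error only.

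Inside the LT-HSC library the Pf4-high mitosis-low cells were set against 4 other sets of cells. These were all 2574 other cells; the 1430 cells with Pf4 and Car1 both under 10 and a mitosis sum under 5 (the Pf4-low mitosis-low cells); the 100 Pf4-high cells with a mitosis sum of 5 or more (the Pf4-high mitosis-high cells); and the 841 Car1-high cells with Pf4 under 10, whatever their mitosis sum. The Pf4-high mitosis-low cells had a median of 20779.5 UMIs (3638 to 96285) and 5070.5 genes, against medians of 12735 UMIs in the Pf4-low mitosis-low, 28813.5 in the Pf4-high mitosis-high and 31476 in the Car1-high cells. Car1-high cells gave 30879728 of the 60995942 UMIs of all other cells. Of the 8 barcodes that occurred in both libraries, 1 belonged to a Pf4-high mitosis-low cell, which was kept.

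Pf4 spanned a wide range among the chosen cells, with no gap at the limit of the rule. Its level had a lowest value of 10.4 per 10000, a median of 34.5 (quartiles 21.2 and 62.3) and a highest value of 200.5. Of the Car1-low mitosis-low cells, 848 had 0 Pf4 UMIs, 38 had 5 to under 8 per 10000 and 16 had 8 to under 10, while 10 had 10 to under 12, 60 had 20 to under 50 and 12 had 100 or more. The 4 cells just under the limit had 9.27, 9.30, 9.77 and 9.85, and the 4 just over it 10.4, 10.6, 10.7 and 10.9. Car1 was at 0 UMIs in 87 of the 148 cells and reached 2.18 per 10000, and 29 cells had a mitosis sum from 2.5 to under 5.

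**Figure D1:**
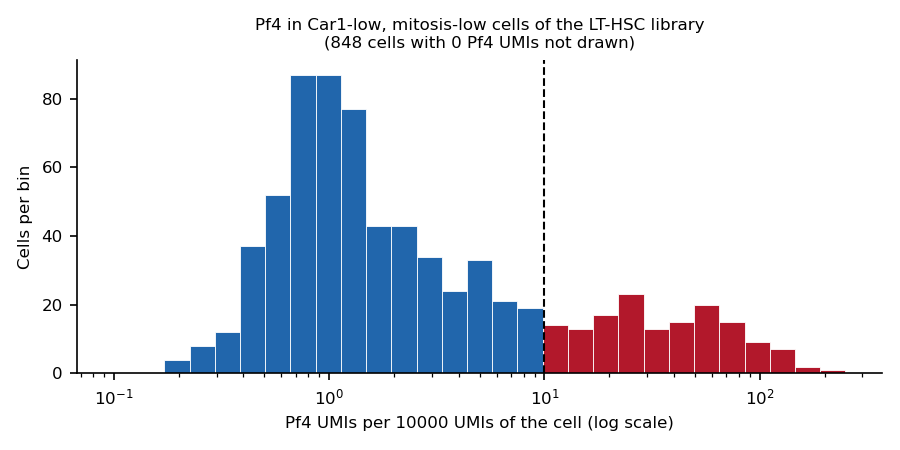
Number of Car1-low, mitosis-low LT-HSC cells (vertical axis) by Pf4 UMIs per 10000 UMIs of the cell (horizontal axis, log scale), with the 848 cells at 0 not drawn; blue bars are Pf4-low and red bars the 148 Pf4-high cells. The counts thin out on both sides of the dashed limit at 10 and no empty stretch separates the sets.

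The promoters of Pf4, Gp9 and Mrvi1 are shown because Pf4 chose the cells, Gp9 is a given marker and Mrvi1 had the highest-ranked ratio, and because their windows hold a letter pattern bound by transcription factors of the lineage. Each run is the 250 bases upstream of the start that RefSeq gives (GRCm38.p6), 5′ to 3′ on the gene's own strand. Capitals mark the letters AGGAAG and likewise CGGAAG (the core read by ETS factors such as Fli1) on either strand in Pf4 and Gp9, and the letters AGATAA together with AGATAG and also TGATAA together with TGATAG (read by GATA factors) on either strand in Mrvi1. The Pf4 window lies at chr5:90772185-90772434 on the plus strand, the Gp9 window at chr6:87777820-87778069 on the plus strand, and the Mrvi1 window, the nearer of 2 listed to the gene start in GENCODE M21, at chr7:110982462-110982711 on the minus strand.
Pf4: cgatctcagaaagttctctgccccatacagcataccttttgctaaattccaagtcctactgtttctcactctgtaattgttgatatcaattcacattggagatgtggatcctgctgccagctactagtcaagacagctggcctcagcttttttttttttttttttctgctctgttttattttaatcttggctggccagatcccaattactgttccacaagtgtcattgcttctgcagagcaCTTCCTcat
Gp9: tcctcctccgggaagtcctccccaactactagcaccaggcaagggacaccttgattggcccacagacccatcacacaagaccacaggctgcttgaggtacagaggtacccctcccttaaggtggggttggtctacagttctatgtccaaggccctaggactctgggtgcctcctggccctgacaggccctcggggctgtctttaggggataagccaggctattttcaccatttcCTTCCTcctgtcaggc
Mrvi1: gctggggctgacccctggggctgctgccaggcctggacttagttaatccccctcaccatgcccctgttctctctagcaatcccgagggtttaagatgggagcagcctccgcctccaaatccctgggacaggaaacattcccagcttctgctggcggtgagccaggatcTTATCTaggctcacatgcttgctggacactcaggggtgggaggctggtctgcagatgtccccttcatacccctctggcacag
Among the 13 genes of those looked up that had a window (5 of the 6 given markers, all but Vwf, and 8 top-ranked genes), 6 held the ETS letters and 3 the GATA letters, against 39.2% and 26.5% of all 32851 RefSeq windows. The patterns are single matches of letters, and no binding was measured here.

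The cells carried the RNA of several megakaryocyte genes besides Pf4. Counts were summed over the cells of a set and scaled to CPM, counts per 1000000 UMIs of the set. Itga2b (chr11:102453297-102470122), the αIIb chain of the platelet fibrinogen receptor, was at 169 CPM in the Pf4-high mitosis-low cells, 31.7 in the Pf4-low mitosis-low, 170 in the Pf4-high mitosis-high and 7.80 in the Car1-high cells. Cavin2 (chr1:51289126-51302960), a caveola coat protein, was at 248, 43.8, 290 and 5.67 CPM in the same order. Treml1 (chr17:48359916-48367176), a receptor stored in platelet granules, was at 116, 20.8, 121 and 3.98 CPM. In all 3 genes the Pf4-high sets lay together, the Pf4-low mitosis-low cells lay between, and the Car1-high cells were lowest.

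Vwf (chr6:125546774-125686679), which encodes von Willebrand factor, followed the same order at 136, 33.1, 114 and 4.79 CPM. Gp9 (chr6:87778072-87779768), part of the von Willebrand factor receptor, was at 133, 54.6, 107 and 8.36 CPM. Against the Pf4-low mitosis-low cells the 5 markers were higher by 5.32-fold for Itga2b (4.76 to 5.94), 5.67-fold for Cavin2 (5.17 to 6.22), 5.59-fold for Treml1 (4.88 to 6.40), 4.10-fold for Vwf (3.65 to 4.61) and 2.43-fold for Gp9 (2.19 to 2.71). Gp9 had the smallest of these ratios, and a Gp9 UMI was seen in 43.1% of the Pf4-low mitosis-low cells.

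The markers also occurred together in single cells. With cells drawn down to 5000 UMIs each (146 of the 148 had as many), 2 or more of the 5 markers besides Pf4 were seen in 117 of 146 cells, and none in 9. Of the 1390 Pf4-low mitosis-low cells thinned the same way, 763 had none and 205 had 2 or more, and of 828 Car1-high cells 710 had none. After thinning, an Itga2b UMI was seen in 52.7% of the Pf4-high mitosis-low cells and 5.43% of the Car1-high cells (91.2% and 19.1% before thinning, at median depths of 20779.5 and 31476 UMIs). For Vwf the thinned shares were 43.8% and 1.81%. Droplets also hold free RNA, whose level was not measured here.

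**Figure D2:**
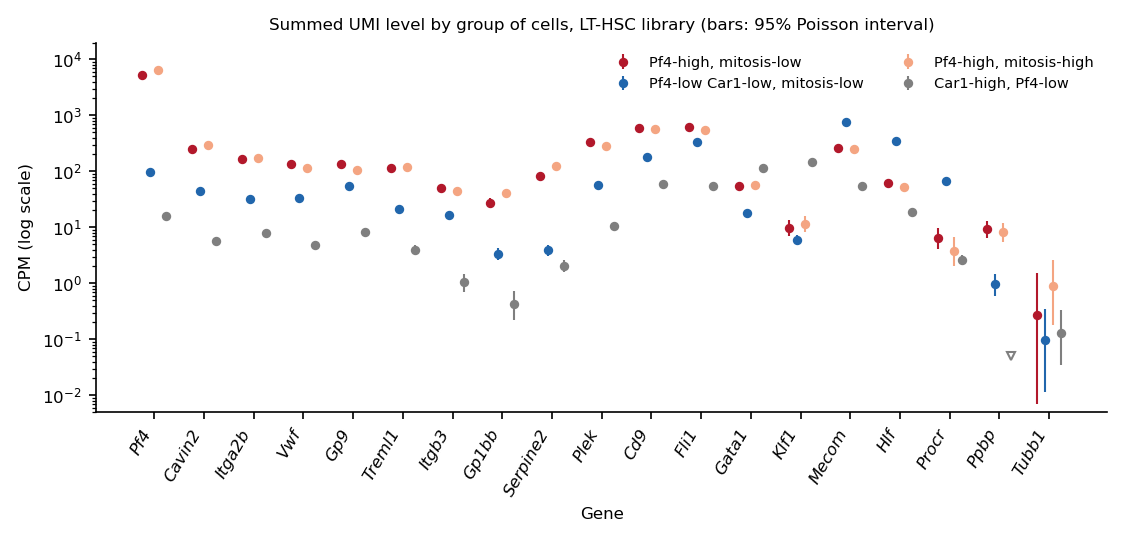
Summed UMI level in CPM (vertical axis, log scale) of 19 genes (horizontal axis) in 4 sets of LT-HSC cells, with 95% Poisson intervals of counting error; the open triangle marks a sum of 0 UMIs. Most platelet genes drawn are high in both Pf4-high sets (Itga2b 169 and 170 CPM), but Tubb1 (0.272 and 0.888) and Ppbp (9.24 and 8.29) are low. Stem cell genes are highest in the Pf4-low mitosis-low cells (Procr 66.3 CPM), and Klf1 is highest in the Car1-high cells (149 CPM).

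Of 10070 genes with a mean of at least 5 CPM over the cells and all other cells, 726 (7.21%) were at least 1.5-fold higher in the Pf4-high mitosis-low cells and 1097 (10.9%) at least 1.5-fold lower. Without the 8 barcodes that both libraries shared the numbers were 726 and 1095. Against the Pf4-low mitosis-low cells 771 of 10314 genes (7.48%) were higher and 2179 (21.1%) lower by that size, with a median log2 ratio over all genes of -0.12. That split depended on the scaling: 26.1% of the genes called were higher as counted, 38.6% with TMM library sizes (1108 higher, 1762 lower) and 42.0% with median-of-ratios size factors. Gene lists were read against these shares.

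Platelet surface receptors were mostly higher. Of 36 receptor genes listed, 27 were measured against all other cells, of which 21 were higher and 0 lower (median log2 ratio 1.52, against -0.0059 over all genes). Against the Pf4-low mitosis-low cells 15 of 29 were higher and 5 lower, with a median of 0.77. Their log2 ratios ran from -2.82 to 3.15, and the genes named next are from the higher side. Gp1bb and Gp1ba, partners of Gp9 in the von Willebrand factor receptor, were at 27.2 and 8.43 CPM, 8.16-fold (5.95 to 11.2) and 3.77-fold (2.31 to 6.05) higher. Itgb3, the partner chain of Itga2b, was at 49.8 CPM and 3.03-fold higher (2.52 to 3.63). The collagen receptor gene Gp6 was at 1 UMI.

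Thrombin and nucleotide receptors were among the higher genes too. F2rl2, a thrombin receptor of the protease-activated family, was at 51.9 CPM against 5.86 in the Pf4-low mitosis-low cells, 8.87-fold higher (7.03 to 11.2). P2ry1, an ADP receptor, was at 35.9 against 6.05 CPM, 5.93-fold higher (4.62 to 7.63). The tetraspanin gene Cd9 was at 601 against 184 CPM.

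Granule and secreted genes were higher in 15 of 25 measured, and lower in 0, against all other cells (median log2 ratio 0.86), and in 13 of 26, with 2 lower, against the Pf4-low mitosis-low cells (0.57). Pf4 itself was left out of these counts. Serpine2, a secreted inhibitor of thrombin and related proteases, was at 82.4 CPM (73.4 to 92.2), against 3.90 in the Pf4-low mitosis-low, 122 in the Pf4-high mitosis-high and 2.07 in the Car1-high cells. It was 21.1-fold higher (16.5 to 27.3) than in the Pf4-low mitosis-low cells, yet it was seen in 74 of the 148 cells, against 65 of 1430. Selp, which encodes the granule adhesion protein P-selectin, was at 18.2 against 10.9 CPM, and coagulation factor gene F10 at 10.6 against 1.67 CPM.

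Some genes of the last steps of platelet formation had almost no UMIs. Tubb1, the β-tubulin of platelet marginal bands, and F13a1, the coagulation factor XIII A chain, had 1 UMI each among 3677929. Ppbp, a platelet chemokine, had 34 UMIs in 26 of the 148 cells (9.24 CPM, 6.40 to 12.9), against 0.952 CPM in the Pf4-low mitosis-low cells. It had 0 UMIs in the 841 Car1-high cells, where a floor of 3 cells would be 0.357%. Of 15 late platelet genes listed, 10 were measured against the Pf4-low mitosis-low cells, with 6 higher and 1 lower. Among the higher ones was Nrgn, neurogranin, at 621 against 280 CPM.

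Cytoskeletal and signalling genes of platelets were higher in part. Of 31 cytoskeletal and proplatelet genes measured, 12 were higher than in all other cells and 1, Ank1, an erythroid membrane ankyrin, was lower (median log2 ratio 0.46), and 11 were higher and 3 lower than in the Pf4-low mitosis-low cells. Plek, pleckstrin, the platelet protein kinase C substrate, was at 330 against 56.2 CPM, 5.87-fold higher (5.42 to 6.37). Rap1b, a small GTPase that switches on the fibrinogen receptor, was at 1023 against 290 CPM, and Tmsb4x, thymosin β4, which binds actin monomers, at 4113 against 1349 CPM. Of 29 signalling genes, 17 were higher and 0 lower than in all other cells (0.92), and 13 higher and 1 lower than in the Pf4-low mitosis-low cells (0.32). They included Rgs10, a regulator of G protein signalling, at 77.5 against 10.2 CPM, and both subunits of soluble guanylate cyclase, the nitric oxide receptor, Gucy1a1 at 87.0 against 42.4 and Gucy1b1 at 27.7 against 5.52 CPM.

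Transcription factor genes of the lineage were mixed. Of 26 measured, 10 were higher and 2 lower than in all other cells (median log2 ratio 0.23), and 8 higher and 5 lower than in the Pf4-low mitosis-low cells (-0.08). Fli1 was at 619 against 333 CPM, 1.86-fold higher (1.77 to 1.95), and Runx1 at 893 against 575 CPM, 1.55-fold higher (1.49 to 1.61). Gfi1b was at 90.0 against 39.9 CPM. Gata2 (147 against 124 CPM) and Nfe2 (82.9 against 105 CPM), which encodes a factor needed for platelet release, differed by under 1.5-fold. Of the 5 lower genes, Lyl1 had the lowest log2 ratio against the Pf4-low mitosis-low cells, -1.002. The rest of the 5 are not named here.

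Gata1 lay between the Pf4-low and the Car1-high cells. It was at 54.1 CPM in the Pf4-high mitosis-low cells, 18.1 in the Pf4-low mitosis-low, 55.9 in the Pf4-high mitosis-high and 117 in the Car1-high cells. Thinned to 5000 UMIs, 30.8% of the Pf4-high mitosis-low cells had a Gata1 UMI, against 5.18% of the Pf4-low mitosis-low and 45.7% of the Car1-high cells. Klf1, the erythroid factor, was at 9.79, 6.0, 11.5 and 149 CPM in the same order, 15.3-fold lower (11.01 to 21.8) than in the Car1-high cells. Epor, the erythropoietin receptor gene, was at 19.6, 9.19, 18.6 and 47.1 CPM.

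Of 27 erythroid genes measured against all other cells (Car1 left out), 24 were lower and 0 higher, with a median log2 ratio of -2.41; the Car1-high cells in that set were placed there by an erythroid gene. Against the Pf4-low mitosis-low cells 8 of 15 were higher and 1 lower, with a median of 0.71 that became -0.033 when genes under 5 CPM were let in. Aqp1, a water channel of red cells, was at 26.9 against 8.81 CPM, and the metallothionein gene Mt1 at 85.6 against 33.5. The β-globin gene Hbb-bt was lower, at 7.07 against 53.5 CPM, 7.57-fold (5.14 to 11.6). It was also low in the Pf4-high mitosis-high cells, at 5.92 CPM, and in the Car1-high cells, at 4.31 CPM. Hbb-bt shares near-identical sequence with its neighbour Hbb-bs, and reads may be split between them. Ermap, Rhd and Tspo2, made later on the erythroid path, had 3, 3 and 10 UMIs.

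Stem cell genes were lower than in the Pf4-low mitosis-low cells, in 28 of 39 measured, with 0 higher and a median log2 ratio of -1.54. Per cell, the summed list had a median of 49.9 UMIs per 10000 (18.2 to 141), against 106 (6.80 to 283) in the Pf4-low mitosis-low, 37.6 (15.6 to 92.3) in the Pf4-high mitosis-high and 13.4 (1.83 to 120) in the Car1-high cells. The ranges overlapped, and the median of the Pf4-high mitosis-low cells lay between those of the Pf4-low mitosis-low and the Car1-high cells.

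Procr, which encodes the endothelial protein C receptor used to sort stem cells, was at 6.53 CPM against 66.3, 10.2-fold lower (6.80 to 15.9). Fgd5, a gene used to mark stem cells in mice, was 23.8-fold lower (10.2 to 73.6), with 5 UMIs in all. Hlf, a transcription factor gene of stem cells, was at 61.7 against 348 CPM, 5.63-fold lower (4.94 to 6.46), and Mecom, another, at 260 against 754 CPM, 2.904-fold lower (2.72 to 3.10). A single cell, the deepest of the 148 at 96285 UMIs, held 18.9% of the Hlf UMIs and 14.6% of the Mecom UMIs. Mecom was still seen in 123 of the 148 cells, and Hlf in 67.

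Genes linked to the quiescence of stem cells were lower in 17 of 26, and higher in 0, against the Pf4-low mitosis-low cells (median log2 ratio -0.91). Cdkn1c, the cell cycle inhibitor p57, was at 9.79 against 65.5 CPM, 6.69-fold lower (4.81 to 9.60), and Ndn, necdin, at 5.44 against 27.0 CPM. The maternally expressed gene Meg3, a long noncoding RNA, was at 4.08 against 52.5 CPM. Ifitm1, an interferon-inducible membrane protein gene, was at 268 against 1406 CPM.

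The sorting gate was compared with the RNA of its genes. Slamf1 (CD150), which the gate asks for, was at 34.8 CPM against 41.5 in the Pf4-low mitosis-low cells, and Kit at 121 against 223. Ly6a, which encodes the stem cell antigen Sca-1, was at 99.2 against 347 CPM, 3.5-fold lower (3.15 to 3.90). Flt3 (Flk2), which the gate leaves out, had 2 UMIs. Cd48, which it also leaves out, was at 15.5 against 10.2 CPM, and Cd34 at 22.3 against 64.2 CPM. Slamf1 was thus within 1.5-fold of its level in the Pf4-low mitosis-low cells (0.838 times, 0.691 to 1.01), while Kit and Ly6a were lower. RNA does not report the surface protein that was sorted.

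Progenitor genes of other lineages were mostly lower than in the Pf4-low mitosis-low cells. Of 8 lymphoid genes measured against the Pf4-low mitosis-low cells, 8 were lower (median log2 ratio -2.13), and of 9 neutrophil and monocyte genes 5 were lower and 1 higher (-1.39). Prtn3, a neutrophil granule protease, was at 93.5 against 408 CPM, and Spi1, the PU.1 factor of myeloid and lymphoid cells, at 36.7 against 96.2 CPM. Ms4a3, better known from granulocyte progenitors, was the higher one, at 17.1 against 4.57 CPM, 3.75-fold (2.68 to 5.20). Mpo, which encodes the granule enzyme myeloperoxidase, was at 0 UMIs. Of 5 neutrophil and monocyte genes measured against all other cells, 2 were higher and 1 lower (0.11), and of 5 against the Car1-high cells 4 were higher (1.83). Among these was Lyz2, the lysozyme gene of myeloid cells, at 127 CPM against 158 in the Pf4-low mitosis-low and 10.9 in the Car1-high cells.

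Cells of other types were sought through their markers. Macrophages can also express Pf4. Their 11 markers gave 30 UMIs in all (8.16 CPM), with 3 at 0, Adgre1 and Csf1r among them, and with 128 of the 148 cells at 0. Of 13 basophil and mast cell markers 7 were at 0, Prss34 and Mcpt8 among them. Of 13 B, T and NK cell markers 10 were at 0, and Nkg7, a granule protein gene of NK cells, at 188 CPM, and Cd79b, at 37.0 CPM, made up nearly all of the rest. Nkg7 was also at 59.1 CPM in the Pf4-low mitosis-low and 105 CPM in the Car1-high cells. Scrublet, which looks for droplets with more than 1 cell, marked 0 of the 148, but it marked 7 of 2722 cells in all (0.257%) and no cell was removed on its account.

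**Figure D3:**
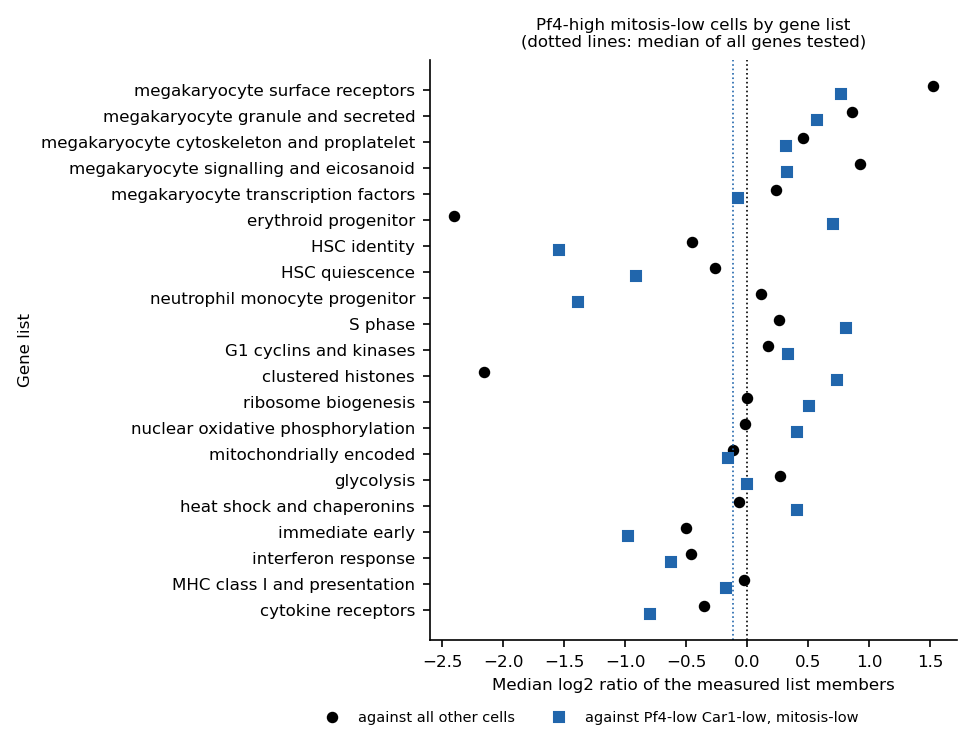
Median log2 ratio (horizontal axis) of the measured members of 21 gene lists (vertical axis) in the Pf4-high mitosis-low cells, against all other cells (black circles) and against the Pf4-low mitosis-low cells (blue squares); dotted lines are the medians of all genes tested. Surface receptors lie at 1.52 and 0.77, and stem cell identity genes at -0.46 and -1.54.

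Although the rule left out cells with much RNA of mitosis, genes of DNA replication were higher than in the Pf4-low mitosis-low cells. Of 32 S phase genes, 26 were higher and 0 lower (median log2 ratio 0.81). Mcm2, a subunit of the replicative helicase, was at 82.9 against 39.1 CPM, 2.12-fold higher (1.85 to 2.42), and Ung, a uracil glycosylase of replicating cells, at 69.1 against 31.4 CPM. Per cell the S phase list had a median of 26.0 UMIs per 10000 (3.43 to 55.2), against 8.84 (0 to 72.8) in the Pf4-low mitosis-low, 34.3 (5.44 to 72.0) in the Pf4-high mitosis-high and 22.9 (0 to 72.9) in the Car1-high cells. The ranges overlapped throughout, and 40 of the 148 cells had a sum of 0 for the 7 genes of the rule.

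G2/M genes that the rule had not named were partly higher than in the Pf4-low mitosis-low cells and far below the Pf4-high mitosis-high cells. Against the Pf4-low mitosis-low cells 10 of 21 measured were higher and 1 lower (median log2 ratio 0.58), with Ccnb2, cyclin B2, at 37.0 against 11.7 CPM, 3.16-fold higher (2.54 to 3.91), and Birc5, survivin, 2.96-fold higher (2.099 to 4.14). Per cell the list had a median of 8.56 UMIs per 10000, against 6.65 in the Pf4-low mitosis-low, 52.0 in the Pf4-high mitosis-high and 38.5 in the Car1-high cells. Of 30 such genes 30 were lower than in the Pf4-high mitosis-high cells, and this difference follows from the rule, since the 7 genes it names belong to the same phase. Ckap2l, a mitotic spindle gene outside that list, was at 56.8 CPM against 5.05 in the Pf4-low mitosis-low cells, 11.3-fold higher (8.87 to 14.4), and 233 in the Pf4-high mitosis-high cells. Clustered histone genes, made during DNA replication, were higher than in the Pf4-low mitosis-low cells in 8 of 12. They were lower in 14 of 15 against the Pf4-high mitosis-high cells, and in 14 of 15 against the Car1-high cells. Per cell their median was 4.64 UMIs per 10000, against 2.62 in the Pf4-low mitosis-low, 58.7 in the Pf4-high mitosis-high and 16.9 in the Car1-high cells. Hist1h1b was at 75.04 CPM, against 25.9 in the Pf4-low mitosis-low and 1390.2 in the Pf4-high mitosis-high cells.

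Genes of the G1 phase were higher in 5 of 19 and lower in 2 against the Pf4-low mitosis-low cells. Ccnd1, cyclin D1, was at 87.5 against 47.8 CPM, 1.83-fold higher (1.61 to 2.08), and was at 57.4 CPM in the Pf4-high mitosis-high and 11.6 CPM in the Car1-high cells. E2f1, a factor that drives entry into S phase, was at 75.04 against 32.0 CPM. Cdk6, the kinase partner of cyclin D1, was at 726 against 355 CPM, 2.05-fold higher (1.96 to 2.14). Myc was at 101 against 78.6 CPM, a ratio under 1.5-fold.

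**Figure D4:**
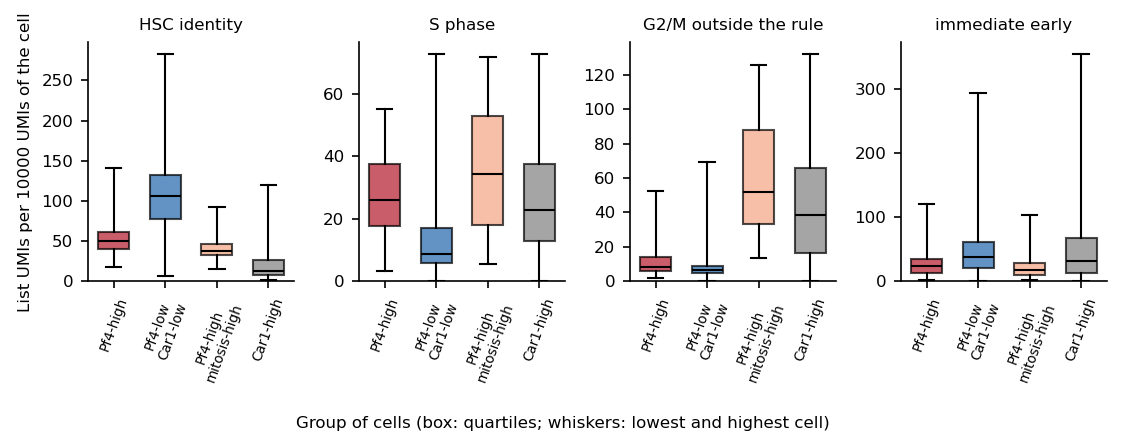
Summed UMIs of 4 gene lists per 10000 UMIs of the cell (vertical axes) in 4 sets of LT-HSC cells (horizontal axes); boxes are quartiles with the median, whiskers the lowest and highest cell. The S phase median of the Pf4-high mitosis-low cells, 26.0, lies near that of the Car1-high cells, 22.9, while their G2/M median, 8.56, lies near that of the Pf4-low mitosis-low cells, 6.65. Clustered histone genes, not drawn, had a median of 4.64 in the Pf4-high mitosis-low and 16.9 in the Car1-high cells.

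Of growth and energy genes, a minority passed 1.5-fold against the Pf4-low mitosis-low cells. Ribosome biogenesis genes were higher in 8 of 30 and lower in 0 (median log2 ratio 0.51), with Nhp2, a small nucleolar RNA-binding protein gene, at 283 against 139 CPM. Nuclear genes of oxidative phosphorylation were higher in 10 of 58 and lower in 0 (0.41), while 0 of 13 mitochondrially encoded genes passed 1.5-fold in either direction. Glycolysis genes were higher in 2 of 19 and lower in 2 (-0.0031). Against all other cells, 0 ribosome biogenesis and 0 oxidative phosphorylation genes passed 1.5-fold, with medians of 0.00 and -0.02. Chaperone genes were higher in 5 of 19, among them Hspa1a, a stress-induced heat shock protein, at 38.3 against 12.2 CPM.

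Immediate early genes, which answer within minutes to stimuli that include tissue dissociation, were lower in 12 of 19 and higher in 0 against the Pf4-low mitosis-low cells (median log2 ratio -0.98). Fos was at 156 against 477 CPM, 3.07-fold lower (2.82 to 3.34), and Nr4a1, a nuclear receptor gene, at 47.0 against 131 CPM. Interferon response genes were lower in 11 of 18 and higher in 0 (-0.63). Cytokine receptor genes were lower in 15 of 22 and higher in 1, Epor (-0.80). Of 19 genes of MHC class I and antigen presentation, only 2 were lower and 0 higher (-0.18). The lowest of them was Cd74, the invariant chain of MHC class II, at 186 against 935 CPM, 5.02-fold lower (4.65 to 5.43).

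Genes with the largest ratios differed in how many cells held them. Mrvi1, which encodes a substrate of cGMP-dependent protein kinase found in platelets, had the highest bound against both sets, at 20.7 CPM against 0.476 in the Pf4-low mitosis-low cells, 43.4-fold higher (22.4 to 94.1). Its 76 UMIs lay in 20 of the 148 cells, whereas Plek was seen in 141 and Serpine2 in 74. Gkn3, a gastrokine gene, was at 27.2 against 6.0 CPM, but 81.0% of its 100 UMIs came from 1 cell and its log2 ratio was -0.026 without the top 5% of cells by UMIs. Pde10a, a cyclic nucleotide phosphodiesterase, was at 67.2 against 11.3 CPM, 5.93-fold higher (4.94 to 7.11), and Ache, acetylcholinesterase, an enzyme of rodent megakaryocytes, at 42.7 against 4.29 CPM, 9.96-fold higher (7.64 to 13.1).

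The lowest ratios against the Pf4-low mitosis-low cells began with the stem cell gene Fgd5, given above. Next was Sult1a1, a sulfotransferase gene, at 1.90 against 32.0 CPM, 16.8-fold lower (8.12 to 42.0). Lhcgr, the luteinizing hormone receptor gene, was at 7.88 against 84.2 CPM, 10.7-fold lower (7.41 to 16.0). Myof, which encodes the membrane repair protein myoferlin, was at 5.71 against 64.6 CPM, 11.3-fold lower (7.37 to 18.3).

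Against the Pf4-high mitosis-high cells 674 of 9860 genes (6.84%) were higher and 575 (5.83%) lower by 1.5-fold. Of 26 granule genes, 0 passed that size in either direction. Of 28 platelet receptors, 4 were higher and 2 lower, numbers too small to be read as a departure from the shares over all genes. Itga2b was at 0.992 times its level in the mitosis-high cells (0.885 to 1.11). Tuba8, an α-tubulin gene, was lower, at 47.0 against 88.5 CPM, 1.88-fold (1.55 to 2.28), as was Serpine2, 1.48-fold (1.28 to 1.73). Stem cell genes were higher in 9 of 31 and lower in 0 (median log2 ratio 0.31). Among the genes ranked highest, beside Gkn3, were Tcp11l2 at 25.01 against 7.40 CPM, Ung, 2.36-fold higher (1.86 to 3.005), and Bach2, a transcription repressor gene, at 32.4 against 13.6 CPM.

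Against the Car1-high cells 2277 of 9697 genes (23.5%) were higher and 1011 (10.4%) lower by 1.5-fold, but with TMM library sizes 1467 were higher and 1952 lower, and with median-of-ratios size factors 1489 and 1904, so that the share higher went from 69.3% to 42.9% and 43.9%. Of 26 platelet receptors 26 were higher (median log2 ratio 3.22, against 0.13 over all genes as counted and -0.15 with TMM). Fli1 was at 619 against 54.7 CPM, 11.3-fold higher (10.6 to 12.1). Stem cell genes were higher in 25 of 28 and lower in 0, with Mecom 4.84-fold (4.46 to 5.24) and Hlf 3.26-fold (2.79 to 3.81) higher. Slc25a21, a mitochondrial carrier gene, was at 3.81 against 679 CPM, 178-fold lower (106 to 326).

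Within the 148 cells, several genes went with the level of Pf4. The cells were split into 34 with Pf4 at 10 to under 20 per 10000, 60 at 20 to under 50, and 54 at 50 or more, with median UMIs of 18407.5, 20875.5 and 22683.5. Serpine2 was at 20.4, 59.1 and 133 CPM in these ranges, 6.52-fold higher in the last than in the first (3.80 to 12.1). Vwf was at 61.1, 124 and 181 CPM (2.96-fold, 2.13 to 4.20), Pde10a at 18.9, 73.4 and 82.9 CPM (4.38-fold, 2.47 to 8.46) and Rgs10 at 36.4, 55.7 and 117 CPM (3.22-fold, 2.11 to 5.11). Mrvi1 had 0 UMIs of 687234 in the first range, 33 of 1470900 in the second and 43 of 1519795 in the third.

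Other markers differed less between the end ranges than Vwf. Treml1 was at 84.4, 89.1 and 157 CPM (1.86-fold, 1.39 to 2.53). Itga2b was at 124, 158 and 199 CPM (1.61-fold, 1.26 to 2.08), Cavin2 at 212, 194 and 316 CPM, and Gp9 at 105, 135 and 143 CPM. Kit was lower with more Pf4, at 175, 140 and 78.3 CPM (2.23-fold, 1.72 to 2.898), and so was Bcl11a, a transcription factor gene of stem and lymphoid cells, at 223, 171 and 99.4 CPM (2.24-fold, 1.78 to 2.82). Mecom, at 268, 387 and 133 CPM, Hlf, at 58.2, 95.9 and 30.3 CPM, and Ifitm1, at 354, 377 and 124 CPM, were lowest in the last range. The cell with most UMIs of the 148 (96285) lay in the second range, and without it the second range was at 313 CPM for Mecom, 71.3 for Hlf and 342 for Ifitm1, the last then below its level in the first range. Gata1, at 64.0, 50.3 and 53.3 CPM, differed between the ends by less than its counting interval.

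**Figure D5:**
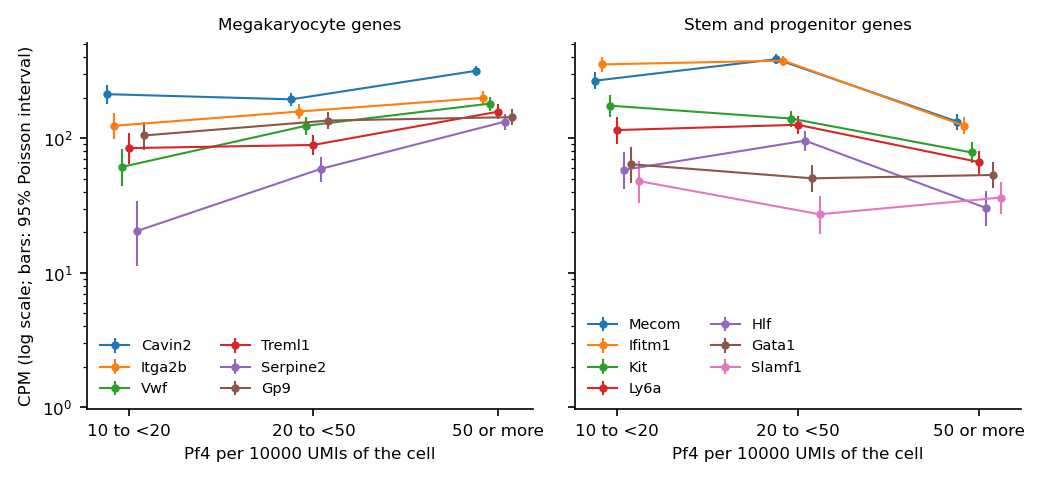
Summed level in CPM (vertical axes, log scale, 95% Poisson intervals) in 3 ranges of Pf4 per 10000 UMIs (horizontal axes) within the 148 Pf4-high mitosis-low cells, for 6 megakaryocyte genes and 7 stem and progenitor genes. Serpine2 goes from 20.4 to 133 CPM and Vwf from 61.1 to 181 CPM, while Kit goes from 175 to 78.3 CPM.

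The library was also clustered with the 9 genes of the rule left out, to see whether cells chosen by Pf4 lay together by their other genes. Of the 148 cells, 137 (92.6%) fell into 1 of 10 clusters, led by Plek, F2rl2, Treml1, Cavin2, Itga2b and Pde10a, and 7 into another. That cluster held 382 cells, so that 35.9% of it were Pf4-high mitosis-low cells; 188 were Pf4-low mitosis-low and 17 Pf4-high mitosis-high cells. Of the 100 Pf4-high mitosis-high cells, 81 lay in a different cluster, led by Pimreg, Mxd3 and Neil3. Other G2/M genes were not left out of the clustering, so this separation is not independent of the limit on the mitosis sum.

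The 188 Pf4-low cells of that cluster shared part of the pattern. Their median Pf4 was 1.18 per 10000, 44 of them had 0 Pf4 UMIs and 36 had 5 or more. Itga2b was at 98.2 CPM in them, against 169 in the Pf4-high mitosis-low cells and 18.1 in the 1242 Pf4-low mitosis-low cells of other clusters. Gata1 was at 62.7, 54.1 and 9.01 CPM in the same order, Hlf at 48.7, 61.7 and 409 CPM, and Procr at 4.76, 6.53 and 79.0 CPM. For Vwf, at 58.5, 136 and 27.9 CPM, and Serpine2, at 10.1, 82.4 and 2.64 CPM, these cells lay nearer to the other Pf4-low cells.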

How the data were processed

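For each library the authors deposited a table of raw UMI counts over 32285 genes. Per the submitters' processing notes the counts were made with Cell Ranger 7.2 on mm10, whereas the version in the file headers is Cell Ranger 7.1.0. The kit is a 10x Genomics 3' kit per the labels. Cells were kept with at least 1000 genes and under 10% mitochondrial UMIs: 2722 of 2938 barcodes in the LT-HSC and 6648 of 7586 in the ST-HSC library. The LT-HSC cells kept held 64673871 UMIs.

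Counts were summed over sets of cells and scaled to CPM. A ratio carries an exact conditional binomial (Clopper-Pearson) 95% interval, a CPM value an exact Poisson interval and a share an exact binomial interval, all for counting error only. PCR copies are collapsed by UMI, but cells of 1 library are not replicates, so no p-value was computed. Genes with a mean of at least 5 CPM over the 2 sets compared were called at 1.5-fold. Reads were counted per gene by symbol and ID as deposited. The ratio interval was tested on simulated Poisson counts of the summed sets. These hold no spread between cells, so the test does not show how the interval fares under such spread.

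The members, gene lists and rules were chosen with earlier results of these data known. Named were the 6 given markers; the 12 highest and 12 lowest ratios against all other and against the Pf4-low mitosis-low cells and the 8 highest and 8 lowest against the other 2 sets, ordered by whichever bound of the interval lay closer to 1, for genes of 20 CPM or more in a set; up to 4 members of each list with the largest ratios; and fixed genes of the lineages. Markers of other cell types, and Mpo, Gp6 and F13a1, are named outside that rule, after their values were seen. Some items that the rule names are not reported here.

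Clustering used scanpy 1.11.5 and leidenalg 0.10.2 (2000 variable genes, 30 principal components, 15 neighbours, resolution 0.8). TMM library sizes came from edgeR 4.0.16. Thinning drew 5000 UMIs per cell and left out shallower cells. Alternatives were other scalings, filters, limits of the rule, thinning, and 2 added after seeing the data, the loss of barcodes found in both libraries and, for levels by Pf4 range, of the deepest cell.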

Additional observations from a re-analysis of the deposited data

Results flagged for a closer look

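The same rule, applied to the ST-HSC library that the comparisons above did not use, found 9 of 6648 cells (0.135%, exact binomial 95% interval 0.0619% to 0.257%), with a median of 6546 UMIs. Pf4 had 117 UMIs in these cells. Of the other megakaryocyte markers, Cavin2 had 0 UMIs and Itga2b had 8, all in 1 cell, while the stem cell genes Hlf (79 UMIs) and Mecom (124 UMIs) were seen in 9 of 9 cells and Flt3 in 5 of 9. One of the 8 barcodes shared by the libraries was a Pf4-high mitosis-low cell in the LT-HSC library; whether RNA passed between the libraries was not tested.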

How the results depend on the processing

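No paired analysis was possible because each sort has 1 library, and for the same reason no replicate could be left out. The share of cells was 7.42% with Pf4 at 5 or more and 4.19% at 20 or more; the rule applied to thinned cells chose 151, of which 130 were among the 148. With TMM library sizes 1467 genes were higher and 1952 lower than in the Car1-high cells, and with median-of-ratios size factors 1489 and 1904, and 1222 were higher than in the Pf4-low mitosis-low cells. With no filter on low CPM the numbers higher and lower were 4871 and 2567 against all other cells, 3131 and 4248 against the Pf4-low mitosis-low, 2104 and 1540 against the Pf4-high mitosis-high, and 6448 and 1708 against the Car1-high cells. At 2-fold they were 272 and 534, 246 and 1078, 120 and 303, and 1226 and 545. With cells thinned to 5000 UMIs 1931 were lower than in all other cells, 1201 higher than in the Pf4-low mitosis-low, and 1786 higher and 1243 lower than in the Pf4-high mitosis-high cells. Of 294 ratios of named genes past 1.5-fold, 8 changed direction under an alternative, in 10 of 3815 values. Against all other cells these were Epor (log2 ratio 0.34) in thinned cells and Tubb1 (-0.50) as a mean over cells. Against the Pf4-low mitosis-low cells they were, in thinned cells, Ank1 (1.51), Ermap (1.14), Hmmr (1.67), Plk1 (2.25) and Rhd (0.44); without the top 5% of cells by UMIs, Gkn3 (-0.026) and Rhd (0.018); and Plk1 (0.19) with Pf4 at 5. Thinning leaves fewer UMIs, and a sum of 0 UMIs was set at 3 for a log2 ratio. Before thinning, Ank1, Ermap and Rhd had 1, 3 and 3 UMIs in the 148 cells. Positive ratios of such genes in thinned cells can come from that floor and do not show a higher level. For the rest the cause was not tested, except that 1 cell holds most Gkn3 UMIs. Of 20 list medians past 1.5-fold, 1 changed sign, the erythroid median against the Pf4-low mitosis-low cells, at -0.033 with no filter.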
